A study of Homo sapiens with 3 samples.

Results

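The ligands of the epidermal growth factor (EGF) family and the ERBB receptors were followed as 9 transcripts in HCT-116 cells: the receptors *EGFR*, *ERBB2* and *ERBB3*, the ligands *AREG*, *EREG*, *TGFA*, *HBEGF* and *BTC*, and the receptor inhibitor *ERRFI1*. They were chosen by name, with earlier results of these data known, and each has 1 of the 23131 rows of the deposited table. HCT-116 is a colon carcinoma line with wild-type *APC* and a β-catenin that lacks the Ser45 residue, and all samples carry both features. The series holds 3 samples of this line, 1 library each. By the authors' account all were harvested 48 hours after the second of 2 transfections on consecutive days. One received pooled siRNA against *APC*, one received pooled scrambled siRNA, and one is the control, which the labels call untransfected in one field and transfected with reagent only (mock) in another. It is called mock here. Values of the anti-*APC* and the mock library are described, and scrambled siRNA is not analysed here. Loss of *APC* and delivery of an siRNA therefore cannot be told apart in these ratios. If the control was untransfected, as one field states, the transfection itself cannot be told apart from them either. With 1 library per condition there is no measure of the spread between cultures, so no difference below was tested. In such bulk RNA, fewer cells of a type and less RNA per cell cannot be told apart.

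EGF family ligands are made as membrane-bound precursors that proteases release from the cell surface. AREG, EREG, TGFA, HBEGF and BTC bind EGFR, and HBEGF, BTC and EREG can also engage ERBB4. ERBB2 has no known ligand and acts as a dimer partner, and ERBB3 has a weak kinase and binds neuregulins. Active receptors signal through the RAS-ERK and PI3K-AKT cascades, ERRFI1 binds and blocks the EGFR kinase, and in colorectal tumors *AREG* and *EREG* levels are studied as markers of dependence on EGFR.

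What makes these 5 ligands a family is a single stretch of their precursors with 6 cysteines at conserved spacing, which folds into the EGF-like domain. The coding bases of this stretch are shown 5′ to 3′ from GENCODE 44 transcripts on GRCh37, with the cysteine codons (TGT or TGC) in capitals.
AREG: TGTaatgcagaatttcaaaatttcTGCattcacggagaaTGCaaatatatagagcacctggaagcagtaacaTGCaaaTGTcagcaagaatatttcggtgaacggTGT
EREG: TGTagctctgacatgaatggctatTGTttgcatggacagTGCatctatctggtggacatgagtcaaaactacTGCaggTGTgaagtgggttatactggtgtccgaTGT
TGFA: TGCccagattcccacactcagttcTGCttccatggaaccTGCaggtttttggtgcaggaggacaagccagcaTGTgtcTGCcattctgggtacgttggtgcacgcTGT
HBEGF: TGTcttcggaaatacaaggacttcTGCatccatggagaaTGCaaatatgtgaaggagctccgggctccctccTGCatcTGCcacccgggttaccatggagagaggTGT
BTC: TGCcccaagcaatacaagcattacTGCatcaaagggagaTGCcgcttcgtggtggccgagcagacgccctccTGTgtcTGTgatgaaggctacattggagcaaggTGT
Each stretch is 108 bases, or 36 codons, and each is split between exons 3 and 4 of its transcript. The domain of *AREG* lies on chromosome 4 from 75314889 to 75316127 (plus strand), that of *EREG* on chromosome 4 from 75246778 to 75248392 (plus strand), and that of *BTC* on chromosome 4 from 75675899 to 75681145 (minus strand). That of *TGFA* lies on chromosome 2 from 70683590 to 70692824 (minus strand), and that of *HBEGF* on chromosome 5 from 139715582 to 139722296 (minus strand). Pairs of ligands were compared in a gapped alignment of bases, in which 54.2% (*AREG* and *BTC*) to 64.3% (*AREG* and *HBEGF*) of columns were identical. Columns with a gap were counted, and gaps were placed without regard to codons, so these shares are not identities in codon frame. *AREG* and *EREG*, which had higher levels after anti-*APC* siRNA, had 59.0% by this measure, inside the range of the other pairs.

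*APC*, the target of the siRNA, had 9.15 FPKM in the mock library and 3.43 FPKM in the anti-*APC* library, so 0.375 of its level remained. FPKM divides the fragments of a gene by its transcript length and by library size, so levels of different genes can be set beside each other. *AXIN2*, a feedback target of WNT signaling, was 6.999-fold higher. Colorectal epithelial markers were high in sum, at 1649 FPKM in the mock library and 1294 FPKM in the anti-*APC* library over 7 genes. Most of this sum was *KRT8*, *KRT18*, *KRT19* and *EPCAM*. *CDH1* had 19.0 FPKM in the mock library and 12.1 FPKM in the anti-*APC* library, *CDX2* had 7.33 and 6.77 FPKM in the same order, and *VIL1* was below 1 FPKM. Leukocyte and endothelial markers summed to less than 1 FPKM in both libraries (4 and 3 genes), and the 5 fibroblast markers summed to 2.86 FPKM in the mock library and 3.11 FPKM in the anti-*APC* library, nearly all of it *COL1A1*.

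The ligands spanned a much wider range of levels than their receptors. In mock cells *AREG* had 466 FPKM, *EREG* had 157 FPKM, *TGFA* had 22.4 FPKM, *HBEGF* had 5.53 FPKM and *BTC* had 1.42 FPKM. The order from *AREG* down to *BTC* was the same after anti-*APC* siRNA, and its closest neighbours were *AREG* and *EREG*, 2.98-fold apart in mock cells and 2.94-fold apart with anti-*APC* siRNA. Among the receptors *EGFR* had 21.7 FPKM, *ERBB2* had 18.2 FPKM and *ERBB3* had 8.42 FPKM in mock cells. *EGFR* was thus 1.19-fold above *ERBB2* in mock cells and 1.57-fold above it with anti-*APC* siRNA. *EGFR* and *TGFA* stood next to each other in mock cells, with *TGFA* at 1.03 times the level of *EGFR*, and their order was the opposite with anti-*APC* siRNA, at 0.806 times. *ERRFI1* was far above every receptor, at 388 FPKM in mock cells and 314 FPKM with anti-*APC* siRNA.

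**Figure D1:**
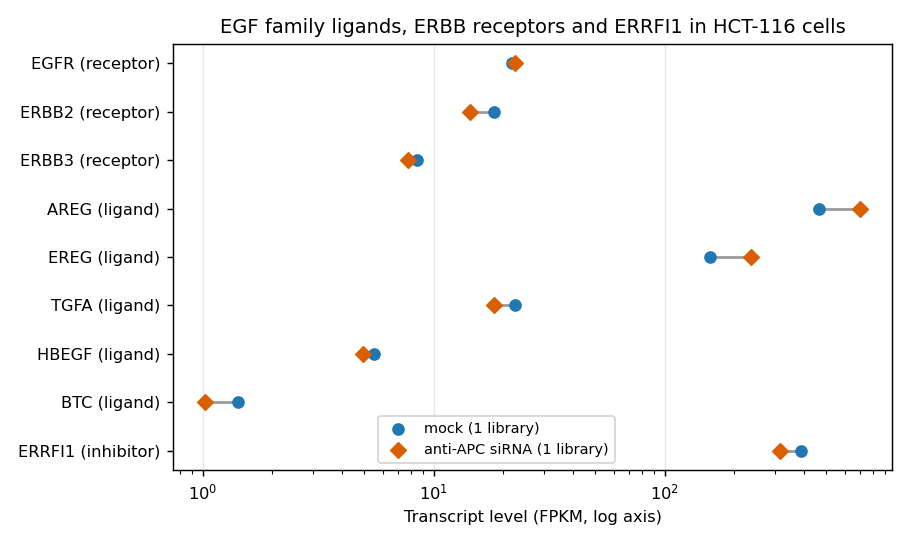
Transcript level in FPKM (log axis) of 3 ERBB receptors, 5 ligands and *ERRFI1* in the mock library (circles) and the anti-*APC* library (diamonds), 1 library each. *AREG*, *EREG* and *ERRFI1* lie at 157 FPKM or more in both libraries, whereas the receptors, *TGFA*, *HBEGF* and *BTC* lie at 22.6 FPKM or less.

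Summed ligand transcript exceeded summed receptor transcript 13.5-fold in mock cells and 21.5-fold after anti-*APC* siRNA. The 5 ligands summed to 652 FPKM in mock cells and 959 FPKM with anti-*APC* siRNA, and the 3 receptors to 48.3 and 44.6 FPKM. *AREG* and *EREG* together made up 95.5% of the ligand sum in mock cells and 97.5% with anti-*APC* siRNA, so the sum describes these 2 genes. Of the difference of 307 FPKM between the ligand sums, *AREG* accounted for 232 FPKM and *EREG* for 80.5 FPKM, while *TGFA*, *HBEGF* and *BTC* together were lower by 5.19 FPKM. Without *AREG* the ligand sum was 3.85 times the receptor sum in mock cells and 5.85 times with anti-*APC* siRNA. The level of *AREG* alone was 21.5 times that of *EGFR* in mock cells and 30.9 times with anti-*APC* siRNA. These are transcript levels, and released ligand and surface receptor were not measured.

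Among the ligands of the chosen set, *AREG* and *EREG* had higher levels after anti-*APC* siRNA. *AREG*, which encodes amphiregulin, had 466 FPKM in the mock library and 698 FPKM in the anti-*APC* library, a log2 ratio of 0.58 (1.497-fold, 95% counting interval 1.47 to 1.53). *EREG*, which encodes epiregulin, had 157 FPKM in the mock library and 237 FPKM in the anti-*APC* library, a log2 ratio of 0.60 (1.51-fold, interval 1.49 to 1.54). The counting intervals come from reads estimated from FPKM, transcript length and depth (about 14603 and 18352 reads for *AREG* and *EREG* in the mock library). They cover counting error only, not the difference between cultures. The interval of each gene includes the ratio of the other, and both include 1.5-fold. *AREG* had rank 203 among all 23131 rows by level in mock cells and rank 140 with anti-*APC* siRNA, and *EREG* had ranks 613 and 394. Their log2 ratios lay above those of 97.4% (*AREG*) and 97.5% (*EREG*) of the 12063 rows with a mean of at least 1 FPKM and values above 0 in both libraries.

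The other ligands of the chosen set had log2 ratios below 0. *TGFA*, which encodes transforming growth factor alpha, had 22.4 FPKM in the mock library and 18.2 FPKM in the anti-*APC* library, a log2 ratio of -0.30 (counting interval -0.39 to -0.21). *HBEGF*, the heparin-binding ligand, had 5.53 FPKM in the mock library and 4.95 FPKM in the anti-*APC* library. Its log2 ratio of -0.16 had a counting interval from -0.39 to 0.08, so a difference was not detectable even against counting error. *BTC*, which encodes betacellulin, had the lowest level of these chosen ligands, with 1.42 FPKM in the mock library and 1.03 FPKM in the anti-*APC* library. Its log2 ratio of -0.47 rested on about 95.8 reads in the mock and 63.2 in the anti-*APC* library and had the widest interval of the 9 genes, from -0.96 to -0.0029.

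Each receptor transcript differed by less than 1.5-fold between the libraries. *EGFR* had 21.7 FPKM in the mock library and 22.6 FPKM in the anti-*APC* library, a log2 ratio of 0.06 (counting interval 0.0012 to 0.11). *ERBB2* had 18.2 FPKM in the mock library and 14.4 FPKM in the anti-*APC* library, a log2 ratio of -0.34 (interval -0.44 to -0.25). *ERBB3* had 8.42 FPKM in the mock library and 7.70 FPKM in the anti-*APC* library, a log2 ratio of -0.13 (interval -0.25 to -0.0078). *EGFR* is the receptor whose sign depends on scaling: its log2 ratio was 0.11 after the median of all rows was subtracted and -0.08 for estimated reads that were not scaled to library size. *ERBB2* shares its locus in the table with *MIR4728*, a microRNA gene within it, whose row is listed at 0 with anti-*APC* siRNA and 90.8 FPKM in mock cells. The precursor is 67 bases long, and how reads were divided between the 2 rows was not tested. *ERRFI1*, the inhibitor also called MIG6, had 388 FPKM in the mock library and 314 FPKM in the anti-*APC* library, a log2 ratio of -0.30 (interval -0.33 to -0.28), so it was lower while *AREG* and *EREG* were higher. Its level was 17.9 times that of *EGFR* in mock cells and 13.9 times with anti-*APC* siRNA.

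**Figure D2:**
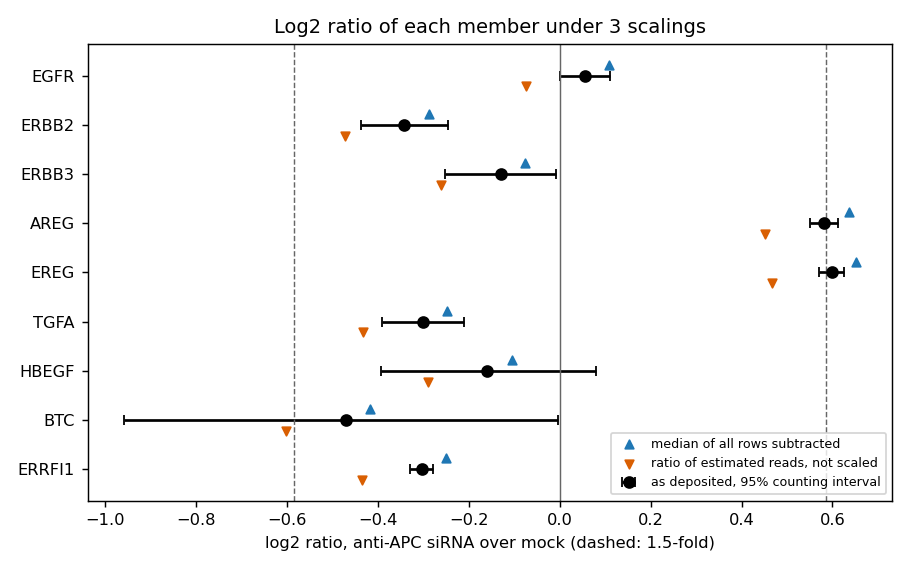
Log2 ratio of anti-*APC* siRNA over mock for each gene as deposited (black, bars are the 95% counting interval), after subtraction of the median of all rows (triangles up) and for estimated reads without scaling to library size (triangles down). *AREG* and *EREG* lie at the dashed line for 1.5-fold, and *EGFR* is the gene with points on both sides of 0.

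At a threshold of 1.5-fold, 1 of the 9 members was higher with anti-*APC* siRNA (*EREG*), against 2.56% of the 12063 rows, and 0 members were lower, against 6.61%. Both ligands lie close to the threshold, since the log2 of 1.5 is 0.585 and *AREG* and *EREG* lie on either side of it at 0.582 and 0.599. At a log2 difference of 0.32, 2 members were higher (*AREG* and *EREG*), against 7.17% of rows, and 2 were lower (*ERBB2* and *BTC*), against 18.4%. No member reached 2-fold, which 0.953% of rows passed upward and 1.37% downward. Since the members were chosen with earlier results of these data known, these shares do not set a blind choice beside all rows. The median log2 ratio of the 9 members was -0.16, with 3 values above 0 and 6 below, and the median over the 12063 rows was -0.05, with 4990 above 0 and 7073 below. The ratios of *TGFA*, *HBEGF*, *ERBB2*, *ERBB3* and *ERRFI1* were thus below 1 but within the bulk of all rows, each above the ratios of at least 17.04% of them, and *BTC* lay above 10.4%.

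**Figure D3:**
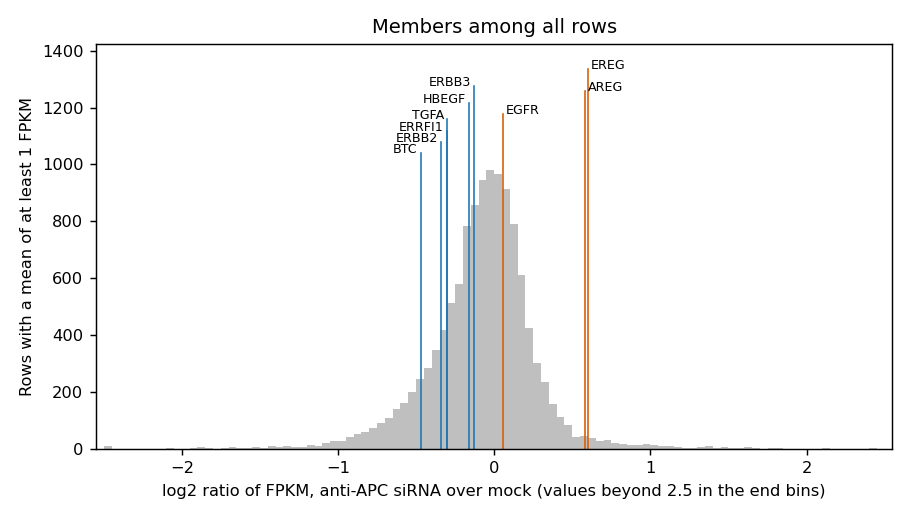
Histogram of the log2 ratio of FPKM (anti-*APC* siRNA over mock) over the 12063 rows with a mean of at least 1 FPKM, in bins of 0.05, with a vertical line for each of the 9 members. *AREG* (0.58) and *EREG* (0.60) lie in the upper tail and the other 7 genes lie between -0.47 and 0.06.

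On GRCh37 *EGFR* lies on chromosome 7 from 55086710 to 55279321, *ERBB2* on chromosome 17 from 37844167 to 37886679 and *ERBB3* on chromosome 12 from 56470583 to 56497289, all on the plus strand. *TGFA* lies on chromosome 2 from 70674416 to 70781325, *HBEGF* on chromosome 5 from 139712428 to 139726188 and *ERRFI1* on chromosome 1 from 8064464 to 8086369, all on the minus strand. *AREG* and *EREG* are neighbours. Together with *EPGN* and *BTC* they lie in a cluster of 546 kb on chromosome 4 of GRCh37: *EPGN* from 75174187 to 75182506, *EREG* from 75230862 to 75254466 and *AREG* from 75310853 to 75320722 on the plus strand, and *BTC* from 75669969 to 75719733 on the minus strand. Levels within the cluster differed far more than between libraries, since *AREG* was 328 times as high as *BTC* in mock cells and 679 times with anti-*APC* siRNA. *EPGN*, which encodes epigen, had 0.225 FPKM in the mock library and 0.431 FPKM in the anti-*APC* library, a log2 ratio of 0.94 (counting interval 1.01-fold to 3.99-fold) from about 15.3 reads in the mock and 26.8 in the anti-*APC* library. The 3 genes on the plus strand had ratios above 1 and *BTC* on the other strand a ratio below 1, and with 4 genes and 1 library each this is a description.

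**Figure D4:**
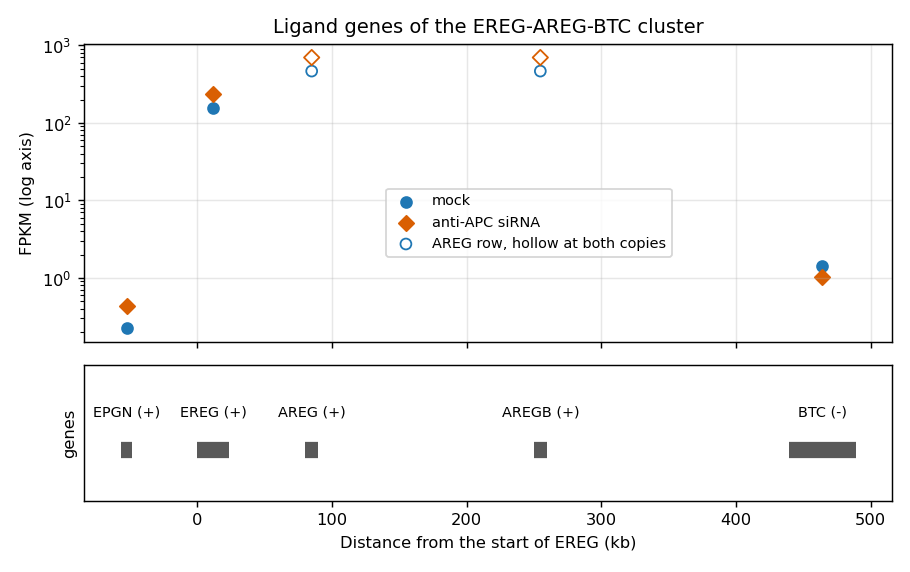
Upper panel: FPKM (log axis) of the ligand genes of the cluster in mock (circles) and anti-*APC* cells (diamonds), at their distance in kb from the start of *EREG*. The single *AREG* row is drawn hollow at both copies of the gene. Lower panel: position and strand of each gene, with *AREG* and *EREG* at 157 FPKM or more between *EPGN* (below 0.5 FPKM) and *BTC* (1.42 and 1.03 FPKM).

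The GRCh37 assembly holds a second copy of *AREG*, annotated as *AREGB*, from 75480629 to 75490486, which starts 169776 bases after *AREG*. The locus given in the table for the single *AREG* row is that of the second copy (75480629 to 75490485), and no row bears the name *AREGB*. The transcripts of both copies have 1233 identical bases of 1234 aligned, and 95.8% of all stretches of 50 bases in the *AREG* transcript also occur in that of *AREGB*. How reads that match both copies were counted is not given in the sources used here. The level of *AREG*, and with it the ligand sum, is therefore less certain than that of *EREG*, and the effect on the ratio between libraries was not tested.

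The bases before the start site are shown for *AREG* and *EREG*, whose levels were higher together, and for *BTC*, their neighbour with a ratio below 1. The sequences are the 250 bases before the RefSeq start (GRCh38.p14 table), found by sequence match on GRCh37 at chr4:75310603-75310852 for *AREG* (plus strand, and again before *AREGB* at chr4:75480379-75480628), at chr4:75230612-75230861 for *EREG* (plus strand) and at chr4:75719734-75719983 for *BTC* (minus strand). Capitals mark a match to a motif searched.
AREG: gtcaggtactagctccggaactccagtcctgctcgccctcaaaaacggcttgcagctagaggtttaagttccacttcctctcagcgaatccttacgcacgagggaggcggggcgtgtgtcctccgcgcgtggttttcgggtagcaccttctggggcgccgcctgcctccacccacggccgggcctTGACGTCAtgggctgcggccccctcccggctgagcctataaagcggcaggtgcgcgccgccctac
EREG: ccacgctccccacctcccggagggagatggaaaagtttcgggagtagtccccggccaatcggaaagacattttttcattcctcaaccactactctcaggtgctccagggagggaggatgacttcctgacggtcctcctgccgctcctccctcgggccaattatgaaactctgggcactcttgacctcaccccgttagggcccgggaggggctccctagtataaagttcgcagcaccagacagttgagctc
BTC: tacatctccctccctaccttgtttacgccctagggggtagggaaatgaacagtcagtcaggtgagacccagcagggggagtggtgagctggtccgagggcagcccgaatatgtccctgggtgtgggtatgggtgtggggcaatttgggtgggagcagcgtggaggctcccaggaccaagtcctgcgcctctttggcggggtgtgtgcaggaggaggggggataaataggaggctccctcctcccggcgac
The motifs, searched on both strands in windows from 250 bases before to 50 after the start, were those of TCF factors (the letters CTTTGAA, the variant CTTTGAT, the variant CTTTGTA or the variant CTTTGTT), which bring β-catenin to DNA, of AP-1 (TGAGTCA, or its reverse complement TGACTCA), and the cAMP response element (TGACGTCA). No match overlapped another. The *AREG* window held the cAMP response element, which begins 65 bases before the start and is found in 1.85% of 35116 windows. The *EREG* and *BTC* windows held none of the 3. Over the 10 windows of the 8 members with an entry, 0 held a TCF motif, found in 13.8% of all windows, and 1, a second start of *EGFR*, held AP-1 motifs, found in 4.95%. *ERBB3* had no entry. These windows are short, and the absence of letters in them says nothing of sites elsewhere.

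Of the other family genes, *NRG4*, which encodes a ligand of ERBB4, had 1.39 FPKM in the mock library and 1.34 FPKM in the anti-*APC* library. *EGF* itself had 0.027 FPKM in the mock library and 0.0075 FPKM in the anti-*APC* library, and *NRG2* had 0.321 and 0.202 FPKM in the same order. *ERBB4* and *NRG3* are listed at 0 in both libraries. *NRG1* is also listed at 0, but its row is 1 of 269 marked as failed by Cuffdiff, which are all at 0 in both libraries, so this value does not show that the gene was silent.

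Genes around the receptors were described from 7 lists, in which 79 genes had a mean of at least 1 FPKM. Of these, 3 were at least 1.5-fold higher with anti-*APC* siRNA and 1 was lower, against 2.56% and 6.61% of the 12063 rows, and the median log2 ratio was 0.01 against -0.05 over those rows. Like the members, the lists were chosen with earlier results of these data known, so they are not a blind choice either. Where a pair of levels is given for a gene of these lists, the first is that of the mock library. Among the 8 of 11 genes of ligand shedding with a mean of at least 1 FPKM, 0 passed 1.5-fold in either direction, and the median was -0.14. *TIMP3*, an inhibitor of metalloproteases, had 1.137 FPKM in the mock library and 0.278 FPKM in the anti-*APC* library, so its mean of 0.707 FPKM kept it out of this count. Its log2 ratio was -2.03 (counting interval -2.64 to -1.44, about 133 and 29.6 reads), and its locus in the table holds another row. The metalloprotease gene *ADAM9* was the most abundant, with 96.4 FPKM in the mock library and 87.7 FPKM in the anti-*APC* library. *RHBDF2*, whose product carries the sheddase ADAM17 to the surface, had 12.9 and 9.10 FPKM, and *NKD2*, which escorts TGFA to the membrane, had 7.40 and 5.32 FPKM, so both were lower with anti-*APC* siRNA by less than 1.5-fold. In the 19 genes of adaptors and the RAS-ERK cascade 0 passed, with a median of 0.03. The adaptor genes *SHC1* (51.7 and 35.2 FPKM) and *GRB2* (84.0 and 61.8 FPKM) had the largest differences among them, both lower with anti-*APC* siRNA, and the phosphatase gene *PTPN11* was the most abundant (93.5 and 101 FPKM). *GAB1*, a docking protein gene of the same list, had 0.568 and 0.294 FPKM, below the filter in both libraries.

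Among receptor inhibitors and ubiquitin ligases 0 of 11 genes passed 1.5-fold, with a median of 0.01. *LRIG1*, a transmembrane inhibitor of ERBB receptors, had 2.17 FPKM in the mock library and 1.61 FPKM in the anti-*APC* library, *CBLB* had 2.58 and 2.07 FPKM, and *STUB1* had 32.5 and 27.1 FPKM. For receptor endocytosis and sorting 0 of 12 passed, with a median of -0.04. *AP2M1*, a subunit of the clathrin adaptor AP-2, had 244 FPKM in the mock library and 183 FPKM in the anti-*APC* library, and *RAB7A*, a GTPase of late endosomes, had 153 and 121 FPKM.

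The ERK pathway feedback list held 2 of the 3 higher genes. *DUSP6*, the phosphatase that inactivates ERK, had 37.5 FPKM in the mock library and 65.9 FPKM in the anti-*APC* library, a log2 ratio of 0.81 (counting interval 0.75 to 0.87). *SPRY4*, which encodes a Sprouty inhibitor of RAS-ERK signaling, had 30.7 and 54.2 FPKM, a log2 ratio of 0.82, whereas its relative *SPRY1* was lower at 1.52 and 0.896 FPKM, a log2 ratio of -0.76. The most abundant gene, *DUSP5*, had 78.8 and 102 FPKM and did not reach 1.5-fold. In all, 2 of 9 genes were higher, against 2.56% of all rows, and 1 was lower, against 6.61%, with a median of 0.13. In the 12 ERK-responsive transcripts 1 was higher and 0 lower, against the same 2.56% and 6.61%, with a median of 0.07. This was *ETV5*, an ETS factor, at 19.2 FPKM in the mock library and 32.8 FPKM in the anti-*APC* library, a log2 ratio of 0.78. *CCND1*, which encodes cyclin D1, had 246 and 315 FPKM, and *PLAUR*, the urokinase receptor, had 23.6 and 17.2 FPKM. The authors also name *CCND1* as a target gene of the TCF factor TCF7L2, and the source of its difference was not tested.

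In the PI3K-AKT branch 0 of 8 genes passed 1.5-fold, with a median of -0.01. The kinase gene *AKT1*, the most abundant, had 56.2 and 47.6 FPKM, and *AKT2*, whose locus in the table also holds a microRNA gene, had 16.9 and 14.5 FPKM.

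**Figure D5:**
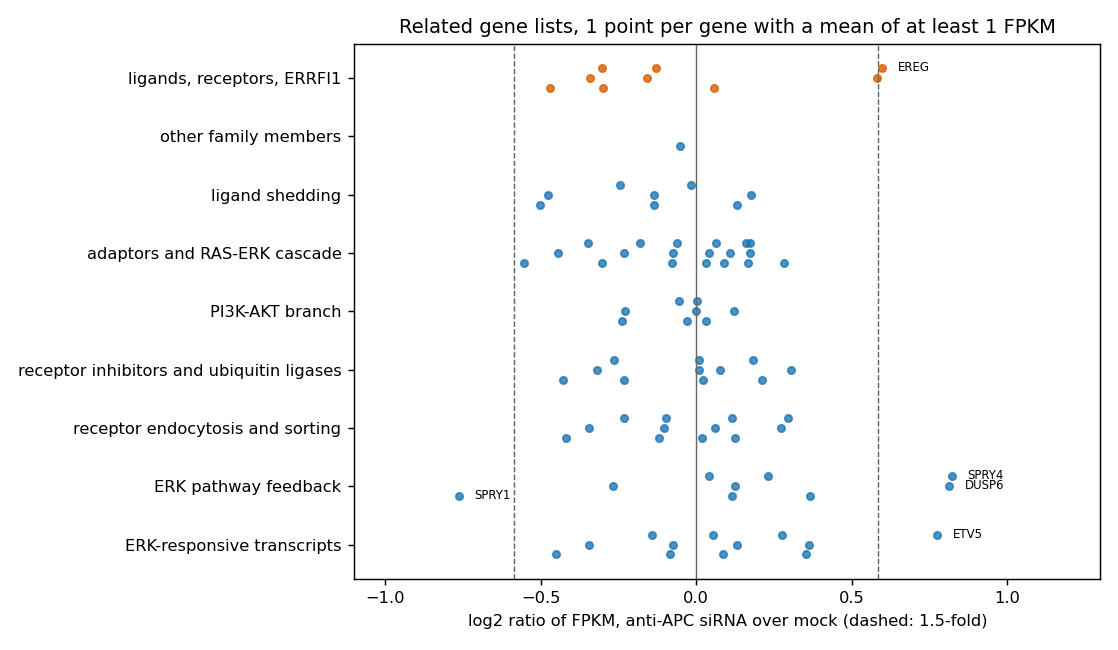
Log2 ratio of FPKM (anti-*APC* siRNA over mock) of the 9 members (top row) and of the genes of 8 related lists with a mean of at least 1 FPKM, 1 point per gene, with dashed lines at 1.5-fold and names on the genes past them. *EREG*, *DUSP6*, *SPRY4* and *ETV5* lie above the upper line and *SPRY1* lies below the lower one.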

How the data were processed

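RNA of HCT-116 cells was sequenced by the authors from single-read TruSeq libraries, and reads were assigned to transcripts with Cufflinks and libraries compared with Cuffdiff. The submitters' processing notes name hg19. Versions, aligner, annotation and strand setting are not given in the sources used here. The authors deposited 1 FPKM value per row for each of 2 libraries, anti-*APC* siRNA and mock. The table also holds the authors' own log ratio, test statistic, p-value, q-value and call, which were not used.

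Ratios are anti-*APC* siRNA over mock, as log2 of FPKM without a pseudocount. Calls use 1.5-fold among rows with a mean of at least 1 FPKM and above 0 in both libraries, and 134 rows at 0 in 1 library have no ratio. Depth was found from low values. Of 2819 rows with a mean under 0.3 FPKM and above 0 in both libraries, 388 share a log2 ratio of 0.13 (within 0.005). This is the ratio of equal whole reads. Rows under 0.05 FPKM with 1 read in one library and 2 or 3 in the other gave a median depth of 25394642 reads for mock (quartiles 21417846 and 26721973, 100 rows), from which 23183923 reads follow for anti-*APC*. Lengths are of 1 GENCODE 44 transcript per gene, so reads per gene are approximate. Intervals are exact binomial (Clopper-Pearson) on rounded reads. The steps were tested on simulated data in which transcript lengths were known, and the intervals there used the simulated reads and depths. The choice of transcript and reads that match several places were not covered by it.

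Genes named are the members, the other family genes and, per list, the most abundant gene and those 2 with the largest absolute log2 ratio. The 7 colorectal epithelial markers, *COL1A1*, *SPRY1*, *TIMP3* and *GAB1* were added to these names once their values were known. One gene of the lists is not reported here and enters none of their counts or medians. The members and lists were chosen with earlier results of these data known. Starts in the table were read as 0-based. Python 3.11.15, numpy 2.4.6, pandas 2.3.3, scipy 1.17.1, Biopython 1.88 and matplotlib 3.10.9 were used.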

Additional observations from a re-analysis of the deposited data

How the results depend on the processing

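With 1 library per condition, no result has a replicate check, and no paired analysis was possible because each group has 1 sample. At a log2 difference of 0.32, 2 members were higher and 2 lower, with 7.17% and 18.4% of all rows and 6 and 11 of the genes of the 7 lists. At 2-fold, 0 members were higher, with 0.953% and 1.37% of rows and 0 list genes in either direction. With the median of all rows subtracted, 2 members were higher. For estimated reads not scaled to library size, 0 members were higher and 1 was lower (*BTC*), with 11.1% of rows and 4 list genes lower. Without a filter, 6.65% of rows were higher and 12.8% lower, and 4 list genes were lower. With a mean of at least 0.5 FPKM, 2 list genes were lower. With a mean of at least 5 FPKM, 3.77% of rows and 0 list genes were lower, and with 1 FPKM added, 4.31% of rows and 0 list genes were lower. Without *AREG* the ligand sum over the receptor sum was 5.85 with anti-*APC* siRNA and 3.85 in mock cells. Other family genes added to the sums, 0.1 FPKM added and rows alone at their locus (which leaves out *ERBB2* of the members) moved none of these counts or sums by over 1.5 times. Scrambled siRNA as the control and a sum of *AREG* with *AREGB* were not run, since only 2 libraries and 1 *AREG* row were analysed. Counting error limits *BTC*, *EPGN* and *HBEGF*.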
